A study of Arabidopsis thaliana with 12 samples.

Results

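CHLM (AT4G25080) and AT1G74470 encode enzymes of chlorophyll synthesis in Arabidopsis thaliana, and their transcripts were compared between 6 arrays of the psan mutant and 6 arrays of wild type (WT), both of ecotype Columbia 0. The psan mutant lacks PSI-N, a small lumenal subunit of photosystem I encoded by PSAN (AT5G64040). WT carries no lesion named in the labels. Each sample was total RNA. The sources used here give neither the allele nor the tissue, age, growth conditions or origin of the samples. The genes are 2 of the 689 loci that had a probe with a single gene symbol in the platform annotation. They were chosen by their place in the pathway with values of the psan and WT arrays already known, so their levels and fold changes are given as a description, without a test.

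Chlorophyll is assembled from a porphyrin ring and a phytol tail. CHLM is the magnesium-protoporphyrin IX methyltransferase, which uses S-adenosylmethionine to methylate the ring after magnesium has been inserted. AT1G74470 is geranylgeranyl reductase, which reduces geranylgeranyl groups to phytyl groups for the chlorophyll tail and for the side chains of tocopherols and phylloquinone. Both enzymes act in the plastid and are encoded in the nucleus, and their genes are known for expression in green tissue.

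The AT1G74470 transcript, on the phytol side, was about 1.93 times as high on psan as on WT arrays in mean deposited intensity. Its groups did not overlap as deposited or after quantile normalisation. Of the 3376 probes tested, 14.6% as deposited and 9.06% after normalisation likewise had every psan array above every WT array. With each array centred on its median the groups overlapped and the difference was smaller. The CHLM transcript, on the porphyrin side, overlapped between the groups. The direction of its difference turned with the scaling, and the size depended on WT arrays 1 and 2. Whether the samples are from separate plants is not stated, so p-values cover only how far these arrays differ from each other, and that spread may be technical. In total RNA, fewer cells that express a gene and less of its RNA per cell cannot be told apart.

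Some arrays stood apart. WT arrays 1 and 2 had 14.5% and 15.1% of their 3439 probes at 0, against 6.19% to 10.8% on the psan arrays and 4.68% to 6.25% on WT arrays 3 to 6. Their median log2 signals, -2.85 and -2.88, were the lowest of the 12, with -1.89 to -1.68 on the psan arrays and -2.32 to -2.27 on the other WT arrays. In WT, numbers 1 and 2, 3 and 4, and 5 and 6 deviated from the group mean together (r from 0.401 to 0.601, over 2243 probes). In psan the same pairs did so unevenly, with r from 0.0331, close to none, to 0.537. No other pair exceeded -0.144 in psan or 0.0928 in WT. The main values are therefore also given with these pairs averaged, as 3 against 3, or without WT arrays 1 and 2. PSAN itself, the check of the labels, had deposited intensities of 0.0681 to 0.243 on the psan arrays and 4.40 to 7.77 on the WT arrays.

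Geranylgeranyl reductase, AT1G74470, was measured well within the brighter part of the array, with 92.7% of the tested probes dimmer. Its deposited intensity, on a linear scale with no unit, ranged over 2.40, 2.52 and 2.98 (lowest, median and highest) on the 6 psan arrays, against 1.16, 1.302 and 1.62 on the 6 WT arrays. All 6 psan arrays lay above every WT array, and the smallest gap was between psan array 3 and WT array 1. The means were 2.60 ± 0.219 (SD, n = 6) in psan and 1.35 ± 0.166 (SD, n = 6) in WT. The coefficient of variation was 8.45% in psan and 12.3% in WT, so the difference between the means exceeded the spread within either group. Such a separation upwards was common on these arrays: 14.6% of the 3376 probes tested had every psan array above every WT array in deposited intensity, and 9.06% did so after quantile normalisation.

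After quantile normalisation, which gives all arrays the same distribution of values, AT1G74470 had log2 signals of 1.25, 1.36 and 1.51 (lowest, median and highest) in psan and of 0.24, 0.46 and 0.98 in WT. The groups again did not overlap. The highest WT values were those of arrays 1 (0.98) and 2 (0.63), the arrays with the lowest medians, and the other WT arrays lay between 0.24 and 0.46. The log2 fold change, psan minus WT, was 0.86 ± 0.17 (SE), or 1.82-fold higher in psan. Of all probes tested, 79.3% had a lower fold change. Without WT arrays 1 and 2 the log2 fold change was 1.01 ± 0.16 (SE), or 2.02-fold.

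Averaging neighbouring arrays did not change the order of the groups for AT1G74470. The mean deposited intensities of the 3 pairs were 2.71, 2.44 and 2.63 in psan and 1.44, 1.25 and 1.34 in WT. Their normalised log2 means were 1.38, 1.37 and 1.35 in psan and 0.80, 0.35 and 0.35 in WT. The psan pairs thus lay close together, while in WT the first pair stood above the other two.

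CHLM, the methyltransferase of the porphyrin side, lay near the middle of the array, with 55.5% of the tested probes dimmer. Its deposited intensity ranged over 0.185, 0.277 and 0.336 (lowest, median and highest) in psan, against 0.0464, 0.305 and 0.384 in WT. The WT arrays spanned the whole psan range: arrays 1 (0.115) and 2 (0.0464) lay below every psan array, and arrays 3 (0.376) and 5 (0.384) above every one. The means were 0.267 ± 0.0545 (SD, n = 6) in psan and 0.255 ± 0.142 (SD, n = 6) in WT, a difference far below the spread. The coefficient of variation was 20.4% in psan and 55.7% in WT.

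**Figure D1:**
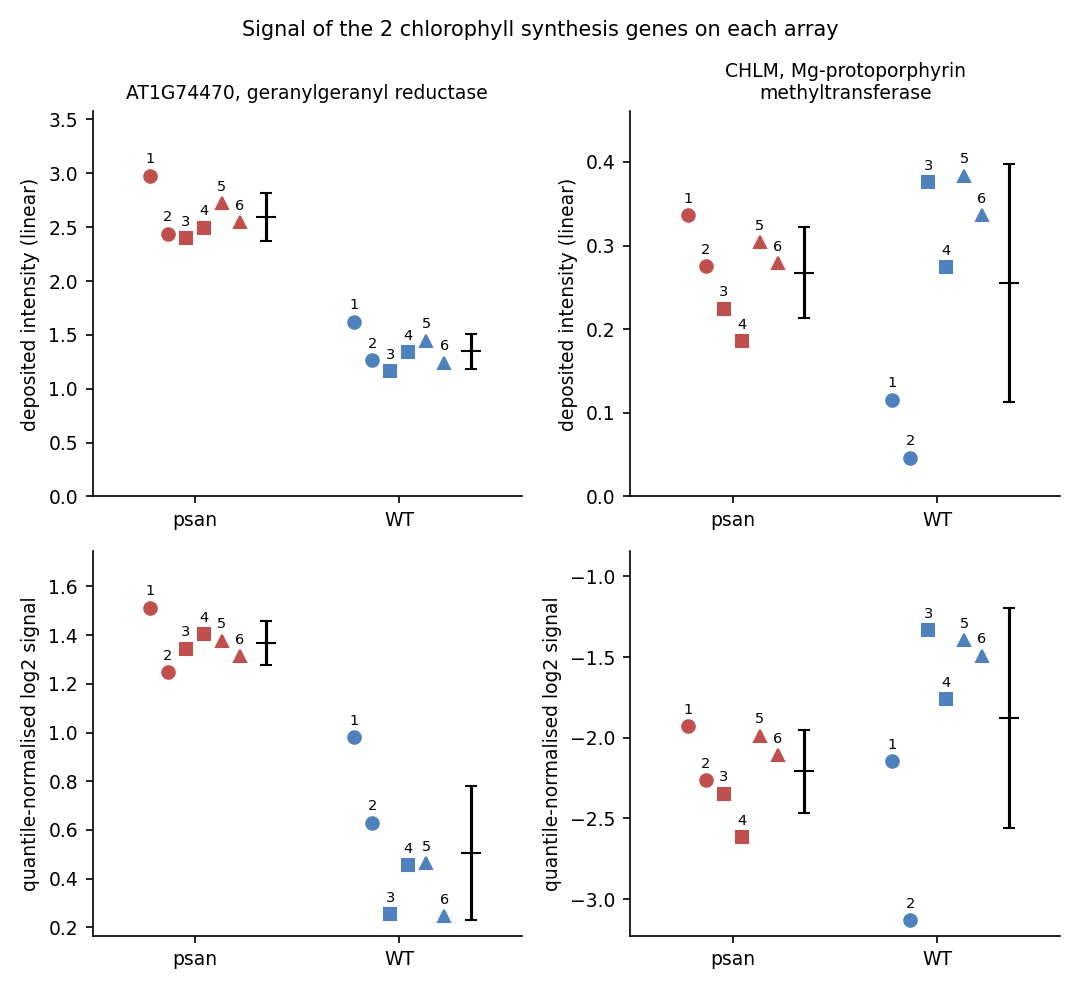
Deposited linear intensity (upper panels) and quantile-normalised log2 signal (lower panels) of AT1G74470 and CHLM on each array, psan left and WT right. Numbers are array numbers, marker shapes join neighbouring numbers, and the black bars are mean ± SD (n = 6); AT1G74470 separates the groups, while the WT values of CHLM run from 0.0464 to 0.384 around the psan values.

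After normalisation, CHLM had log2 signals of -2.62, -2.18 and -1.93 (lowest, median and highest) in psan and of -3.13, -1.63 and -1.33 in WT. The log2 fold change was -0.33 ± 0.30 (SE), little more than its standard error, and 37.3% of all probes had a lower one. Among the arrays of WT, number 2 was the lowest of all 12 at -3.13 and number 1 lay at -2.15, within the psan range. WT arrays 3 to 6 lay between -1.76 and -1.33, above all 6 psan arrays.

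Without WT arrays 1 and 2, CHLM was lower in psan, with a log2 fold change of -0.71 ± 0.20 (SE), or 1.64-fold. On this scale every psan array then lay below each of the 4 remaining WT arrays, as it did for 15.1% of the 3358 probes tested without those 2 arrays. In deposited intensity the groups still overlapped, at 0.185 to 0.336 on the psan arrays and 0.274 to 0.384 on WT arrays 3 to 6. Leaving out WT array 2 alone gave -0.58, and leaving out WT array 1 alone gave -0.39. As deposited, over 12 arrays, the fold change had the other sign, 0.37 ± 0.49 (SE).

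The pairs of arrays showed where CHLM varied. Mean deposited intensities of the 3 pairs were 0.306, 0.205 and 0.292 in psan, and 0.0809, 0.325 and 0.360 in WT. In psan the pair of arrays 3 and 4 was the lowest, and in WT the pair of arrays 1 and 2. Within the pair of WT arrays 1 and 2 the normalised log2 values still differed by 0.98, against 0.095 to 0.43 within the other pairs of either group. The low CHLM signals thus fell on the WT arrays with the most probes at 0; the part of that in the CHLM result was not tested.

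Set beside each other on the same arrays, CHLM and AT1G74470 lay on opposite sides of their WT means in psan after quantile normalisation. Each side is here a single gene, so this is not a result for either branch. The gene AT5G63290, related to an enzyme of the porphyrin side, had a log2 fold change of 2.23 ± 0.18 (SE). On the phytol side, AT1G78620 had -0.46 ± 0.36 (SE). Relative to its own WT mean, AT1G74470 was higher on all 6 psan arrays, by 0.74 to 1.01 on the normalised log2 scale. Relative to its own WT mean, CHLM was lower on all 6, with -0.74 to -0.051. This did not hold on every scale: as deposited, 5 of the 6 psan arrays lay above the WT log2 mean of CHLM, and with the probe number corrected 2 of 6 did. The share of all probes with every psan array on the same side of the WT mean is not given here. The counts for these genes therefore have no background to be set against. The change of CHLM minus that of AT1G74470 was -1.19 on the log2 scale, with an SD over arrays of 0.25 in psan and 0.87 in WT (n = 6 each). Individual psan arrays had -1.64 to -0.99 for this difference, counted from the WT mean. The WT arrays had -1.38 to 0.79, and arrays 1 (-0.75) and 2 (-1.38) were the 2 WT arrays below the mean. WT array 2 thus lay within the psan range, through its low CHLM value. The difference kept its sign under the 24 alternatives run, some of which cannot move it, with values from -1.73 to -0.58.

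**Figure D2:**
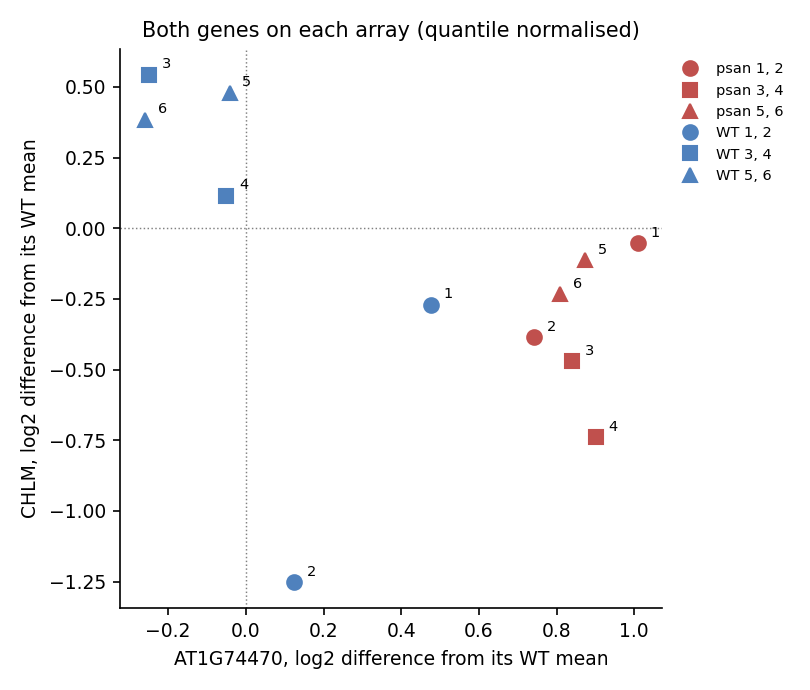
Quantile-normalised log2 signal of CHLM (vertical) against AT1G74470 (horizontal) on each array, each as the difference from the gene's own WT mean; red is psan, blue is WT, and shapes mark neighbouring numbers. The psan arrays sit at 0.74 to 1.01 for AT1G74470 and at or below -0.051 for CHLM, and WT arrays 1 and 2 lie away from the other WT arrays, towards low CHLM values.

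Many probes shared a shift between the groups before normalisation. As deposited, the log2 fold changes of all probes tested had a median of 0.46, and the shift was smaller for the brighter probes. The probes were ordered by brightness and divided into 10 equal classes, with class 1 the dimmest. Classes 1 to 6 had medians of 0.53 to 0.75, and from class 7 to class 10 the medians fell from 0.45 to 0.018. CHLM was in class 6, with a median of 0.75, and AT1G74470 in class 10, the brightest, with 0.018. Relative to its own class, CHLM had -0.39 and AT1G74470 had 0.93 as deposited. Relative to all probes, CHLM had -0.094 and AT1G74470 had 0.49. With each array centred on its median, AT1G74470 had 0.28 ± 0.21 (SE), with a median of -0.20 over all probes, which is the one scaling under which its value came near its standard error. On that scale WT array 1, at 3.55, lay above every psan array, at 2.97 to 3.31, and the groups overlapped. CHLM then had -0.31 ± 0.39 (SE).

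The position of a probe in the numbering also went with its fold change. In a repeating period of 24 bins of 12 numbers each, chosen on these values, bin medians of the log2 fold change ran from -0.75 to 0.58. The bin of AT1G74470 had a median of -0.55 over its 137 other probes, with 6 called higher and 44 called lower, and 94.9% of these probes had a lower fold change than AT1G74470. The bin of CHLM had a median of -0.41 over 134 other probes, with 6 called higher and 35 lower, and CHLM lay in its middle, above 51.5% of them. With the effect of the number removed from each array, AT1G74470 had 1.34 ± 0.23 (SE) and CHLM had -0.0088 ± 0.29 (SE).

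**Figure D3:**
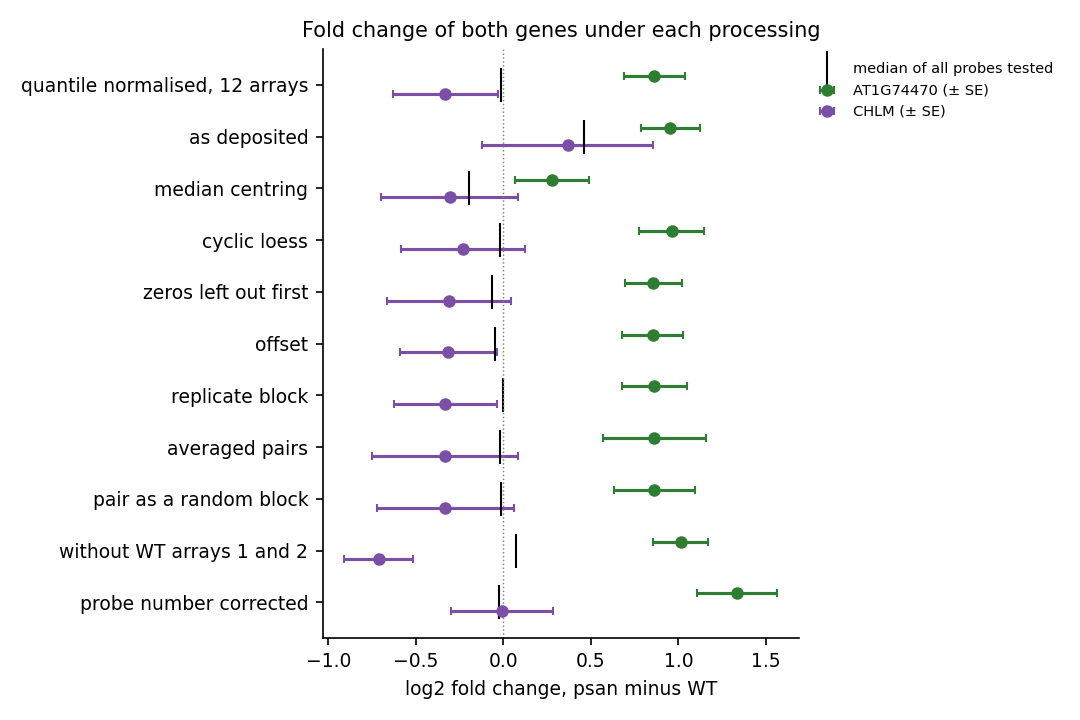
Log2 fold change (psan minus WT) of AT1G74470 and CHLM with its standard error under 11 ways of processing, one per row, with the median of all probes tested as a black tick. AT1G74470 lies above the median of all probes in each row, at 0.28 to 1.34, and CHLM runs from -0.71 to 0.37.

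For the whole table, limma called 29.9% of the 3376 probes at an adjusted p under 0.05, 14.3% of all probes being higher in psan and 15.6% lower. Of the 2 genes, AT1G74470 was among the probes called higher and CHLM was not called. With averaged pairs 4.3% of all probes were called and neither gene was. CHLM was called, as lower, only without WT arrays 1 and 2, which leaves out its lowest WT values. AT1G74470 was not called with median centring. As both genes were chosen with this contrast known, nothing is read from any of these calls.

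The question of whether other steps of the pathway differed could be put to few genes. In 9 lists of tetrapyrrole, chlorophyll, isoprenoid, S-adenosylmethionine, regulator and antenna genes, 4 of 112 further loci had a single-gene probe, and all 4 were tested. Of these, 1 was called higher and 1 lower, against the 29.9% called over all probes, so this count does not stand out. Their median log2 fold change was -0.39, against -0.015 over all probes tested, but it was 0.038 without WT arrays 1 and 2 (0.072 over all probes) and -0.0084 after correction for the probe number. A further 5 probes that hold a listed locus carry several gene symbols and were not named. No list of leaf, root, seed or flower markers had a single-gene probe, so the tissue was not checked.

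AT5G63290, whose product is related to the oxygen-independent coproporphyrinogen III oxidases of the path to protoporphyrin, was the gene of these 4 that rose. Its deposited intensity ranged over 2.05, 2.92 and 3.06 (lowest, median and highest) in psan, against 0.281, 0.616 and 0.705 in WT. Every psan array lay above every WT array by a wide margin, and the lowest psan values were those of arrays 3 and 4. Of all probes tested, 14.6% had every psan array above every WT array in deposited intensity. The log2 fold change after normalisation was 2.23 ± 0.18 (SE), or 4.71-fold, with a limma adjusted p of 1.08e-05, and 96.1% of all probes had a lower fold change. It also passed with averaged pairs (adjusted p = 0.0327), without WT arrays 1 and 2 (2.07, adjusted p = 8.55e-05) and with the probe number corrected (1.56, adjusted p = 0.00211). As for CHLM, its lowest WT values were those of arrays 1 (0.281) and 2 (0.295).

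On the side of phytol use, AT1G78620 (VTE6), the kinase that turns phytyl phosphate into phytyl diphosphate, did not pass. Its deposited intensity ranged over 0.143, 0.215 and 0.393 in psan and 0.147, 0.204 and 0.310 in WT. The groups overlapped, with 2 psan arrays above every WT array and 1 below every one. The log2 fold change was -0.46 ± 0.36 (SE) after normalisation (limma adjusted p = 0.369) and 0.14 as deposited, where it turned sign. WT arrays 1 (-1.07) and 2 (-1.33) had the highest normalised log2 signals of all 12, and without them the log2 fold change was -0.079 (adjusted p = 0.880). Correcting for the probe number gave -0.12.

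CBL, the cystathionine beta-lyase of the methionine synthesis that feeds S-adenosylmethionine, fell. Deposited intensities ranged over 0.0134, 0.152 and 0.354 in psan and 0.0662, 0.584 and 0.815 in WT, and the groups overlapped through WT array 2. The log2 fold change was -2.13 ± 0.59 (SE) with a limma adjusted p of 0.0166. Its size depended on single arrays with low signal. Without psan array 4, which had the 0.0134, it was -1.69, and without WT array 2 it was -2.48. CBL did not pass as deposited (-1.75, adjusted p = 0.126), with averaged pairs (adjusted p = 0.112) or with the pair as a random block (adjusted p = 0.116).

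LHB1B2, a chlorophyll-binding protein of the light-harvesting complex of photosystem II, did not pass (log2 fold change -0.32 ± 0.31 (SE), limma adjusted p = 0.483). Its deposited intensity was 17.9 to 21.5 on the psan arrays and 17.8 to 19.3 on WT arrays 3 to 6. WT arrays 1 and 2 stood far above both, at 48.3 and 42.9, and without them the log2 fold change was 0.15. With median centring it was -1.04 (adjusted p = 0.0620). CHLM and LHB1B2 thus differed on WT arrays 1 and 2 in opposite directions, CHLM being low and LHB1B2 high there.

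**Figure D4:**
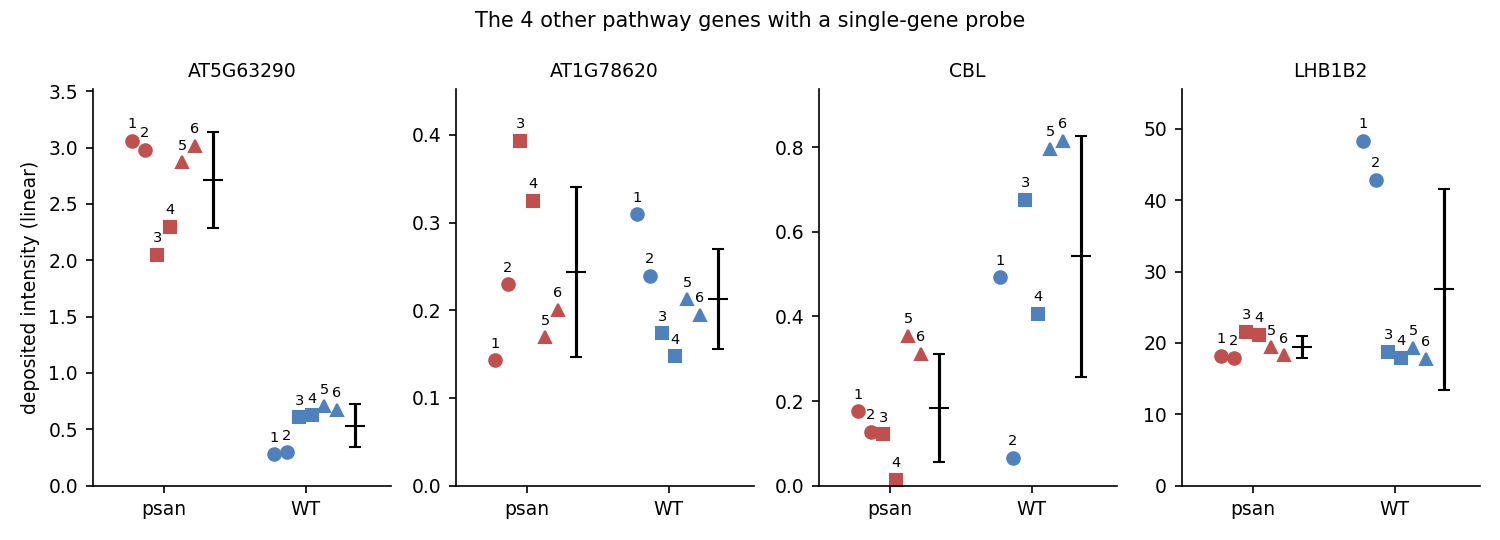
Deposited linear intensity of AT5G63290, AT1G78620, CBL and LHB1B2 on each array, psan left and WT right, with array numbers, shapes for neighbouring numbers and mean ± SD (n = 6) in black. AT5G63290 separates the groups, at 2.05 to 3.06 in psan and 0.281 to 0.705 in WT, and LHB1B2 is high on WT arrays 1 and 2.

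The genes whose pattern was most like each enzyme were taken from the 425 other single-gene probes above 0 on all 12 arrays, by Pearson correlation of normalised log2 values over the 12 arrays. For AT1G74470 they were AT1G27610 (r = 0.983), AT3G23940 (r = 0.942), which encodes a dihydroxyacid dehydratase of branched-chain amino acid synthesis, and AT2G30100 (r = 0.939). All 3 had large fold changes of their own, at 2.86, 2.06 and 1.97 on the log2 scale. The choice favours this, as correlations over the 12 arrays include the difference between the groups. For CHLM they were DI21, named for its induction by drought (r = 0.901), AT1G62150 (r = 0.890) and AT2G29870 (r = 0.888), with log2 fold changes of -0.61, -0.32 and -0.012. These correlations share arrays, scaling and pairs, and are a description.

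By deviations from the group means, which leave the difference between genotypes aside, the nearest to AT1G74470 were AT1G27610 (r = 0.886), AT1G30700 (r = 0.880) and AT1G79220 (r = 0.846). The nearest to CHLM were AT2G29870 (r = 0.936), AT4G03150 (r = 0.897) and AT5G06990 (r = 0.890). The list for CHLM rested on WT arrays 1 and 2: without them, 0 of its 3 nearest genes by normalised values were the same, and for AT1G74470 1 of 3 was. The enzymes themselves correlated with r = -0.49 over the 12 arrays, with 0.28 within psan and -0.58 within WT. As deposited, these values were 0.19, 0.72 and -0.20, so the sign over the 12 arrays depended on the scaling.

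**Figure D5:**
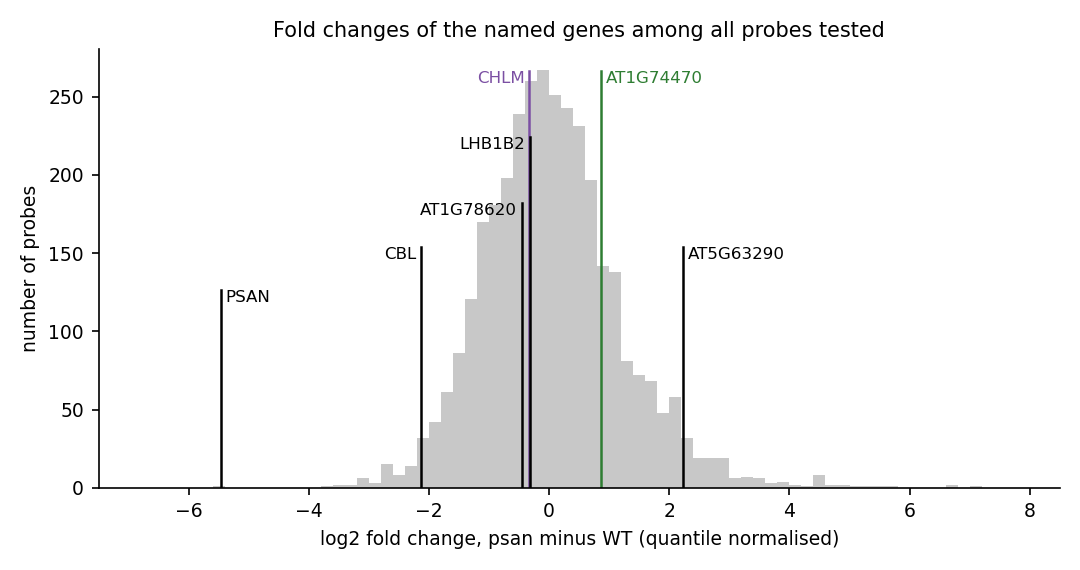
Number of probes by log2 fold change (psan minus WT, quantile normalised) over all 3376 probes tested in grey, with lines at the values of the 2 enzymes, the 4 other pathway genes and PSAN; line heights carry no value. AT1G74470 lies at 0.86 and AT5G63290 at 2.23, to the right of the median of all probes, and CHLM at -0.33, left of it.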

How the data were processed

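Total RNA of 6 psan and 6 WT samples was measured on arrays, with groups and numbers taken from the sample titles. The authors deposited 1 intensity per probe and sample for 3439 probes, on a linear scale with a floor at 0. The highest deposited value was 100 on every array. Beyond that, the sources used here give neither the array type nor the scaling. Of these probes, 692 carried 1 gene symbol, 870 several, and the rest none; 690 of the 692 had a locus in RefSeq's gene table for TAIR10.1, from which only names were taken. The brightest probe stood for a gene.

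Arrays were quantile normalised, zeros were left out, and a linear model of the log2 values was fitted in limma 3.58.1 (lmFit, eBayes, two-sided, psan minus WT, Benjamini-Hochberg, threshold 0.05) under R 4.3.3, after a check on simulated data. A probe was tested with at least 1 array of each group above 0. The number of arrays limits the precision. The genes, lists and alternatives were chosen with earlier results of these data known. Named were both enzymes, PSAN, every listed pathway locus with a single-gene probe, and the 3 genes most like each enzyme by each of both correlations. Same-numbered arrays of the groups were not treated as pairs, as their deviations correlated from -0.155 to 0.228. Alternatives changed the scaling, the treatment of zeros and dim probes, the variance model, blocks, the arrays used and the probe number effect. Figures used matplotlib 3.10.9.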

Additional observations from a re-analysis of the deposited data

Results flagged for a closer look

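Among 34 sets of 6 normalised log2 signals (each named gene in each group) examined for a single array far from the rest, 1 stood out, where chance gives about 1.7. CBL on WT array 2 had -2.73, against -1.23 to -0.33 on the other WT arrays, a gap of 0.627 of the whole range. The same array gave the lowest CHLM value, which did not stand out by this measure.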

How the results depend on the processing

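The log2 fold change of CHLM was 0.37 as deposited, the reverse of its value after normalisation, and leaving out each array gave -0.58 to -0.22. That of AT1G74470 was 0.28 with median centring, 1.34 with the probe number corrected and 0.81 to 0.96 with each array left out. The difference between them was -1.47 to -1.04 with each array left out. PSAN passed under all 24 alternatives, with -5.94 to -4.89. The 1010 probes called became 145 with averaged pairs, 553 with the pair as a random block (consensus correlation 0.567) and 586 at an adjusted p under 0.01; leaving out each array gave 889 to 986. The split of 484 higher and 526 lower was 753 and 254 as deposited and 340 and 677 with median centring. Of the 4 other pathway genes, AT5G63290 alone passed (1 gene) as deposited, and likewise with a random block per pair or averaged pairs, against 2 in each of the other settings, leaving out each array included. AT1G78620 had 0.14 as deposited. LHB1B2 had 0.15 without WT arrays 1 and 2, 0.11 after correction for the probe number, and -1.04 with median centring. Of the 3 genes nearest each enzyme, 1 was the same as deposited for either enzyme, and 0 for AT1G74470 with median centring. Without WT array 2 alone, 0 were the same for CHLM. The causes of these changes were not tested. Averaging leaves fewer samples, while the random block keeps all 12 arrays, and the part of the sample number in the lower counts was not tested. The replicate number as a block gave 896 calls and left the fold changes at -0.33 and 0.86 and the calls of PSAN, AT5G63290 and CBL in place.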
